A study of Mus musculus with 5 samples.

Results

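The contractile and actin-bundle genes of mammary fibroblasts were followed in RNA sequencing libraries of sorted mouse cells. They are 32 genes chosen by name, which encode smooth muscle actins, myosin, tropomyosins, calponins and proteins of stress fibres and their anchors. All 32 were found among the 45706 rows of the deposited table, and 30 of them reached the level needed for a test. Cells positive for PDGFRa, a surface receptor used to sort fibroblasts, came from glands 4 and 5 of Balb/c mice. There were 3 libraries from glands at involution day 6, called InvD6 here, which is 6 days after the pups were weaned, and 2 libraries from nulliparous glands. The design text calls the libraries of a group biological replicates, and neither the age of the mice nor any pooling of animals is given in the sources used here. InvD6 mice had also been through pregnancy and lactation, so those stages and involution cannot be told apart. Unlogged totals were 40993100 to 43002100 scaled counts in InvD6 libraries and 37564600 to 38947200 in nulliparous libraries.

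Fibroblasts pull on their matrix through bundles of actin and myosin. Nonmuscle myosin II slides along actin filaments when its regulatory light chain is phosphorylated, tropomyosins and calponins line the filaments, alpha-actinins and filamins crosslink them, and talin, vinculin and zyxin tie the bundles to integrins. A myofibroblast is a fibroblast that in addition makes smooth muscle actin, and the transcription factor SRF with its cofactors drives many of these genes through a DNA element called the CArG box. Smooth muscle cells and pericytes of vessels, and the myoepithelial cells that squeeze milk from the alveoli, use the same smooth muscle genes.

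The promoters of members that hold a CArG box are shown because this element links SRF to the genes compared below. RefSeq promoter windows on build GRCm38.p6, which reach from 250 bases before to 50 bases after the start, were matched for 27 of the 32 members. An exact CArG box stood in the windows of 4 of these 27 genes, namely Myl9, Cnn2, Srf and Vcl. It stood in 13.3% of the members' windows and in 1.63% of all 32851 windows. The element reads the same way on both strands, so 1 search covers both. The 250 bases before the start are printed 5′ to 3′ on the gene's strand with the box in capitals. They lie at chr2:156775214-156775463 on the plus strand for Myl9, chr10:79988350-79988599 (plus) for Cnn2, chr17:46556163-46556412 (minus) for Srf and chr14:20929148-20929397 (plus) for Vcl.
Myl9: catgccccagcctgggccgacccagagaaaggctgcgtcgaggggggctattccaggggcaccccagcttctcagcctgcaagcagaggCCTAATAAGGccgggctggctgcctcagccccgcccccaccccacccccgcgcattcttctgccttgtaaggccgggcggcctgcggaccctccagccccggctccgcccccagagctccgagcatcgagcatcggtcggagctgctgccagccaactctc
Cnn2: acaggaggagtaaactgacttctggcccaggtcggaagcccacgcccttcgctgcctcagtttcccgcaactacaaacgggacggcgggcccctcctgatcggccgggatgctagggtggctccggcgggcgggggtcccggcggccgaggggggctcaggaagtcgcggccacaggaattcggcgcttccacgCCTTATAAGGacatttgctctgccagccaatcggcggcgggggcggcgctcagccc
Srf: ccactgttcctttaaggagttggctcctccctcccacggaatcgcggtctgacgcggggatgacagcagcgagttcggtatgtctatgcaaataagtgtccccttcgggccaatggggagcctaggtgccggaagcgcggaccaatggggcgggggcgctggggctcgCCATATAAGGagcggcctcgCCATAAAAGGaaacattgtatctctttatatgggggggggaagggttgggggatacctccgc
Vcl: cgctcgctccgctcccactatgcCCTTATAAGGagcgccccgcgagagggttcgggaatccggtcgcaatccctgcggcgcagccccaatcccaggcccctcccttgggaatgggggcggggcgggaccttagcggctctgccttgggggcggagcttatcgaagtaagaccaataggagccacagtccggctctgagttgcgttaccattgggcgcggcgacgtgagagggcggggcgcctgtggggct
The window of Srf held 2 boxes, and each of the others held 1. A match is only a run of letters, and binding of SRF was not measured.

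The levels of the members ran from close to the value of a row without reads up to 15.36. Values are the deposited log2 of a scaled count plus an offset of about 11.8, so that a row without reads sits at 3.57. Flna, which encodes the actin crosslinker filamin A, and Myh9, the heavy chain of nonmuscle myosin IIA, had the highest values, at 14.68 to 15.11 and 14.90 to 15.24 in InvD6 libraries and at 15.09 to 15.36 and 14.28 to 14.63 in nulliparous libraries. Actg2, the smooth muscle gamma actin gene, and Myocd, whose protein myocardin is the smooth muscle cofactor of SRF, lay close to the value of a row without reads. Actg2 had 4.38, 3.95 and 3.76 in InvD6 libraries and 5.17 and 4.42 in nulliparous libraries. Myocd had 4.08, 3.87 and 3.86 in InvD6 libraries and 4.59 and 4.19 in nulliparous libraries. Every InvD6 library lay below both nulliparous libraries for these 2 genes, which were too low to be tested. Pdgfra, the gene of the sort, stood at 16.09, 15.88 and 15.69 in InvD6 libraries and at 15.87 and 15.93 in nulliparous libraries.

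**Figure D1:**
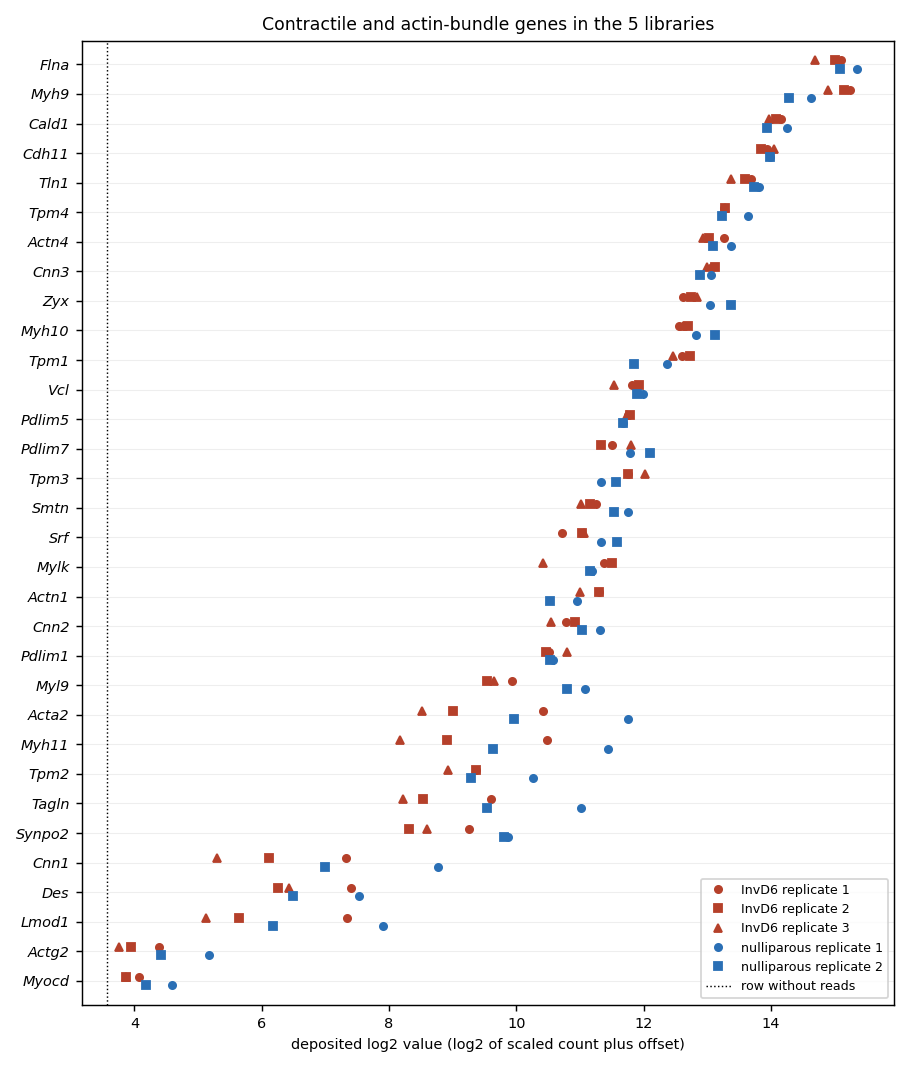
Deposited log2 value of each of the 32 members in 3 InvD6 (red) and 2 nulliparous (blue) libraries, ordered by mean level, with a dotted line at the value of a row without reads. Acta2, Myh11, Tagln, Cnn1 and Lmod1 are spread widely within both groups, while Mylk is spread in InvD6 libraries only.

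Of the 30 members tested, 0 rose and 3 fell in InvD6 fibroblasts, and 27 did not pass. The 3 were Myl9, Synpo2 and Smtn. Of all 15912 genes tested, 11.3% were called in either direction, 6.65% higher and 4.66% lower. The median log2 difference was -0.31 over the members tested and -0.03 over all genes tested, and 23 of the 30 members had a difference below 0. All 3 InvD6 libraries lay below both nulliparous libraries for 8 of the 30 members and above them for 5, against 25.1% and 21.9% of all genes tested. Groups without overlap were seen for 47.0% of all genes in either direction, and for 13 of the 30 members, so the members stood close to the background by this measure and by the share called in either direction. These tests used limma on the deposited log2 values with Benjamini-Hochberg adjustment over all genes tested and a threshold of 0.05.

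Myl9 encodes the regulatory light chain of smooth muscle and nonmuscle myosin, whose phosphorylation switches the motor on. The gene lies on chromosome 2 from 156775420 to 156781658 on GRCm38, plus strand. Its values were 9.94, 9.54 and 9.66 in InvD6 libraries and 11.08 and 10.80 in nulliparous libraries. The InvD6 libraries all lay below the nulliparous ones, and each group spread over less than the gap between them. Myl9 fell 2.34-fold, a log2 difference of -1.23 ± 0.15 (SE, n = 3 and 2, adjusted p = 0.0068 in limma). It passed under each of the 15 alternatives run, with adjusted p from 0.000644 to 0.0495 in limma, and the difference ran from -1.37 to -1.09. Its promoter with the CArG box is the first of those printed above.

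Synpo2 encodes synaptopodin 2, an actin-bundling protein of smooth muscle and of the Z-disc, on chromosome 3 from 123076519 to 123236149, minus strand. Values were 9.26, 8.32 and 8.60 in InvD6 libraries and 9.87 and 9.80 in nulliparous libraries. The groups did not overlap, with InvD6 replicate 1 nearest to the nulliparous libraries. Synpo2 fell 2.16-fold, by 1.11 ± 0.27 on the log2 scale (SE, n = 3 and 2, adjusted p = 0.0498 in limma), which is at the edge of the threshold. It did not pass without InvD6 replicate 2 or 3 or without nulliparous replicate 1 or 2 (adjusted p = 0.113, 0.109, 0.18 and 0.163 in limma). Without InvD6 replicate 1 it passed at 0.0126, and it also missed the threshold with every gene with reads, without a variance trend, with a robust prior and with median centring (adjusted p from 0.0542 to 0.148 in limma).

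Smtn encodes smoothelin, an actin-associated protein of contractile smooth muscle, on chromosome 11 from 3517523 to 3540612, minus strand. Values were 11.25, 11.16 and 11.02 in InvD6 libraries and 11.75 and 11.53 in nulliparous libraries, with no overlap. Smtn fell 1.41-fold, by 0.49 ± 0.11 on the log2 scale (SE, n = 3 and 2, adjusted p = 0.0386 in limma). It lost the call without any 1 of the 5 libraries (adjusted p from 0.0601 to 0.166 in limma), and also with every gene with reads (0.102) and without a variance trend (0.0891). The exons of Smtn are overlapped by genes on the other strand, as are those of 10 further members (11 in all), and reads were not marked by strand.

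**Figure D2:**
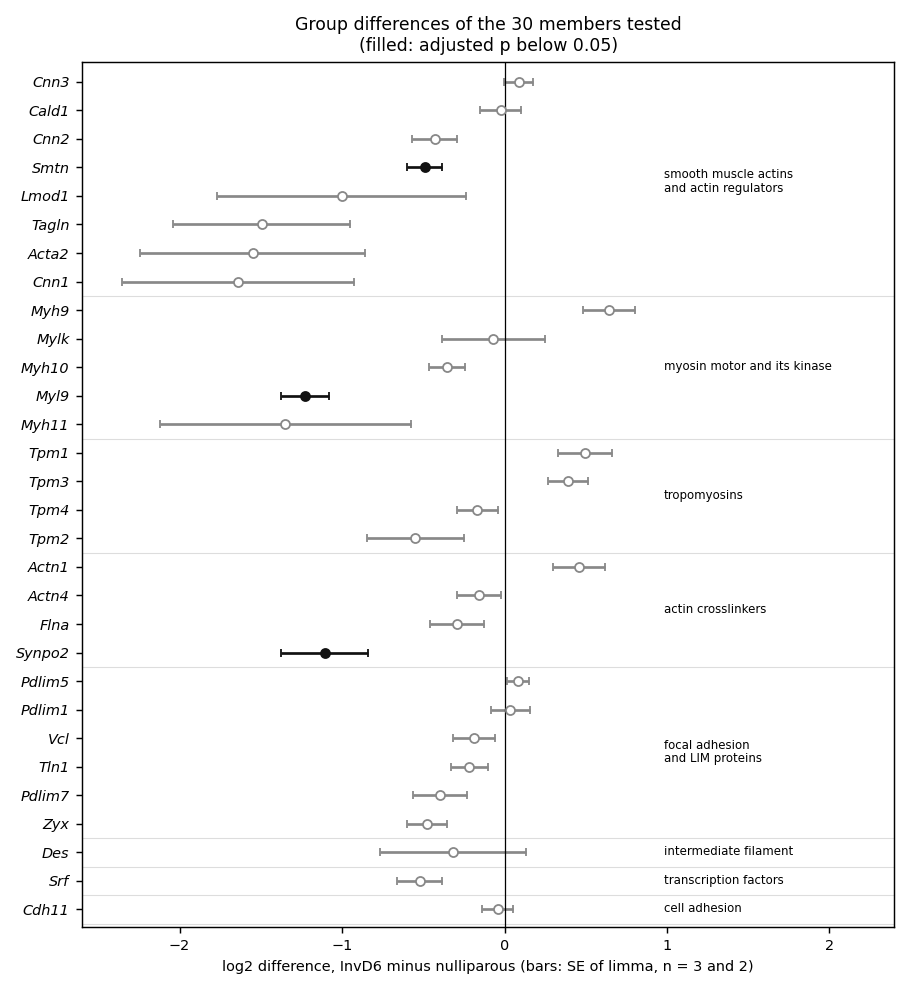
Log2 difference of InvD6 minus nulliparous fibroblasts for the 30 members tested, grouped by role, with bars for the SE of limma (n = 3 and 2). Filled points passed the threshold, namely Smtn, Myl9 and Synpo2, all below 0, and the widest bars belong to Acta2, Cnn1, Lmod1 and Myh11.

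The genes that define a smooth muscle or myofibroblast program were low on average in InvD6 fibroblasts but differed as much between libraries of the same group. Acta2, the smooth muscle alpha actin gene on chromosome 19 from 34241090 to 34255590, had 10.41, 9.01 and 8.52 in InvD6 libraries and 11.76 and 9.96 in nulliparous libraries. The groups overlapped, since InvD6 replicate 1 lay above nulliparous replicate 2. Its log2 difference of -1.55 ± 0.69 did not pass (SE, n = 3 and 2, adjusted p = 0.202 in limma). Tagln, which encodes the actin-binding protein transgelin or SM22, had 9.60, 8.53 and 8.22 in InvD6 libraries and 11.02 and 9.54 in nulliparous libraries. It overlapped in the same way, with a log2 difference of -1.50 ± 0.54 (adjusted p = 0.134 in limma). When single libraries were left out, the extremes for both genes came from leaving out a nulliparous library. Without nulliparous replicate 1 the log2 difference was -0.653 for Acta2 and -0.756 for Tagln. Without nulliparous replicate 2 it was -2.45 for Acta2 and -2.24 for Tagln.

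Myh11, the smooth muscle myosin heavy chain gene, had 10.49, 8.91 and 8.17 in InvD6 libraries and 11.44 and 9.64 in nulliparous libraries. Cnn1, the smooth muscle calponin gene, had 7.32, 6.11 and 5.30 in InvD6 libraries and 8.77 and 7.0 in nulliparous libraries. Lmod1, which encodes the smooth muscle actin nucleator leiomodin 1, had 7.34, 5.64 and 5.13 in InvD6 libraries and 7.91 and 6.17 in nulliparous libraries. For all 3 genes InvD6 replicate 1 lay above nulliparous replicate 2, and InvD6 replicate 3 was the lowest library. The log2 differences were -1.35 ± 0.77 for Myh11, -1.64 ± 0.71 for Cnn1 and -1.0 ± 0.77 for Lmod1 (SE, n = 3 and 2), with adjusted p of 0.305, 0.192 and 0.437 in limma. Without nulliparous replicate 1 they were -0.451, -0.757 and -0.135 in the same order of genes, and without nulliparous replicate 2 they were -2.25, -2.52 and -1.87. Without InvD6 replicate 3 the difference was -0.839 for Myh11 and -0.548 for Lmod1, and without InvD6 replicate 1 it was -1.65 for Lmod1. Because Cnn1 and Lmod1 sit low, the offset makes their differences too small.

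The spread of these genes followed the libraries. Acta2 differed by 1.89 between InvD6 replicates 1 and 3 and by 1.79 between nulliparous replicates 1 and 2, both more than its difference between the groups. For Myh11 these values were 2.32 and 1.80, for Cnn1 2.02 and 1.76, for Lmod1 2.21 and 1.73, and for Tagln 1.39 and 1.48. A range above 1 within a group was seen for 7 of the 30 members tested, or 23.3%, against 9.77% of all genes tested. The 7 were Acta2, Tagln, Cnn1, Lmod1, Myh11, Des and Mylk. Des, the gene of the muscle intermediate filament protein desmin, had 7.40, 6.26 and 6.42 in InvD6 libraries and 7.53 and 6.49 in nulliparous libraries. Mylk, the gene of the kinase that phosphorylates the myosin light chain, had 11.37, 11.51 and 10.41 in InvD6 libraries and 11.19 and 11.15 in nulliparous libraries. Only InvD6 replicate 3 stood apart for Mylk, and its log2 difference was -0.07 ± 0.32 (SE, n = 3 and 2, adjusted p = 0.907 in limma).

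The same ranking of libraries was found for most markers of some other cell types and for few of others. Nulliparous replicate 1 above 2, together with InvD6 replicate 1 above 2 and 2 above 3, was found for 13 of the 30 members tested, or 43.3%, against 12.7% of all genes tested. It was also found for 8 of 10 basal epithelial markers, 11 of 12 luminal markers, 6 of 8 endothelial markers, 10 of 10 macrophage markers and 5 of 13 tested markers of mural cells, the smooth muscle cells and pericytes of vessels. It was found for 0 of 6 tested skeletal muscle markers, 0 of 2 tested adipocyte markers and 1 of 9 fibroblast markers. Krt14, a keratin gene of myoepithelial cells, had 9.53, 8.49 and 7.18 in InvD6 libraries and 10.46 and 8.91 in nulliparous libraries. Rgs5, a pericyte gene, had 10.50, 9.07 and 8.22 in InvD6 libraries and 10.58 and 9.05 in nulliparous libraries. The part that other cells had in the values of Acta2, Tagln, Myh11, Cnn1 and Lmod1 was not tested. In sorted cells measured in bulk, fewer cells of a type and less RNA per cell cannot be told apart.

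Summed over each list, unlogged marker RNA did not overlap between the groups for mural cells, at 5290 to 8630 scaled counts in InvD6 libraries and 11000 to 11700 in nulliparous libraries. Sums of skeletal muscle markers did not overlap either and were also lower in InvD6 libraries. Those of macrophage, adipocyte and fibroblast markers did not overlap and were higher in InvD6 libraries. Of the 15 mural genes, Higd1b and Pln were below the filter, and 13 were tested. Of these, 0 rose and 2 fell, or 15.4% lower, against 4.66% of all genes tested. The 2 were Trpc6, a cation channel gene, with a log2 difference of -2.46 ± 0.32 (SE, n = 3 and 2, adjusted p = 0.00789 in limma), and Cox4i2, with one of -1.16 ± 0.26 (adjusted p = 0.043 in limma). Trpc6 did not pass when every gene with reads was tested (adjusted p = 0.0516 in limma), and Cox4i2 did not pass without any 1 library (adjusted p from 0.0626 to 0.197 in limma). The most abundant gene of the list was Abcc9, which held the largest part of the sum in every library. It overlapped between the groups at 11.55 to 12.03 in InvD6 libraries and 12.03 to 12.66 in nulliparous libraries. Notch3, next in mean level, did not overlap, at 9.25 to 10.59 in InvD6 libraries and 11.16 to 11.47 in nulliparous libraries. It did not pass (adjusted p = 0.0543 in limma). Of the 13 genes tested, all InvD6 libraries lay below for 6, and the groups overlapped for 7, among them Rgs5. Of all genes tested, 25.1% lay below. The sums of basal epithelial markers were 5790 to 8370 in InvD6 libraries and 7860 to 10400 in nulliparous libraries, and 0 of 10 passed. Endothelial sums were 8380 to 12800 in InvD6 libraries and 10200 to 13700 in nulliparous libraries, and 0 of 8 passed. Skeletal muscle markers were low, at 246 to 304 in InvD6 libraries and 521 to 572 in nulliparous libraries. Of 6 tested, only Actn3 and Myh4 fell, and the groups overlapped for the other 4. Their log2 differences were 0.302 for Ttn, 0.0328 for Mylpf and -0.184 for both Tnnt3 and Atp2a1. Of the genes too low to be tested, Ckm, Tnnc2 and Tnni2 lay higher in all InvD6 libraries. Myh1 and Myh2 lay lower in all of them, and Acta1 overlapped. Ckm, the muscle creatine kinase gene, stayed at or below 3.79 in every library. Macrophage sums were 5110 to 14900 in InvD6 libraries and 2410 to 4980 in nulliparous libraries, and Lyz2 and Adgre1 rose, the only 2 of 10 to pass. Luminal sums were 7490 to 43700 in InvD6 libraries and 10300 to 31200 in nulliparous libraries, and 1 of 12, the milk protein gene Wap, rose. Csn2 made up most of the InvD6 sums, at 14.90, 13.27 and 12.22 in these libraries. Of the 12 luminal genes, 10 had a log2 difference below 0 and 2 above, with a median of -1.29. Adipocyte sums were 1840 to 1930 in InvD6 libraries and 428 to 599 in nulliparous libraries, where of 2 tested Plin4 rose and Cfd fell. Plin4 made up most of the InvD6 sums, at 10.9, 10.8 and 10.9 in these libraries. For Adipoq, Plin1, Cidec, Cfd and Retn, all InvD6 libraries lay below both nulliparous libraries. Their log2 differences were -0.92, -1.08, -1.14, -1.91 and -0.41 in that order. Lep overlapped (0.46), and all genes of the list but Plin4 and Cfd were too low to be tested. Fibroblast sums were 4440000 to 5750000 in InvD6 libraries and 4040000 to 4180000 in nulliparous libraries. The most abundant gene of that list, the collagen gene Col3a1, overlapped between the groups. Of 9 fibroblast genes only Pdpn, the podoplanin gene, passed, and it rose. The part of mural and muscle RNA in the falls of Myl9, Synpo2 and Smtn was not tested.

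**Figure D3:**
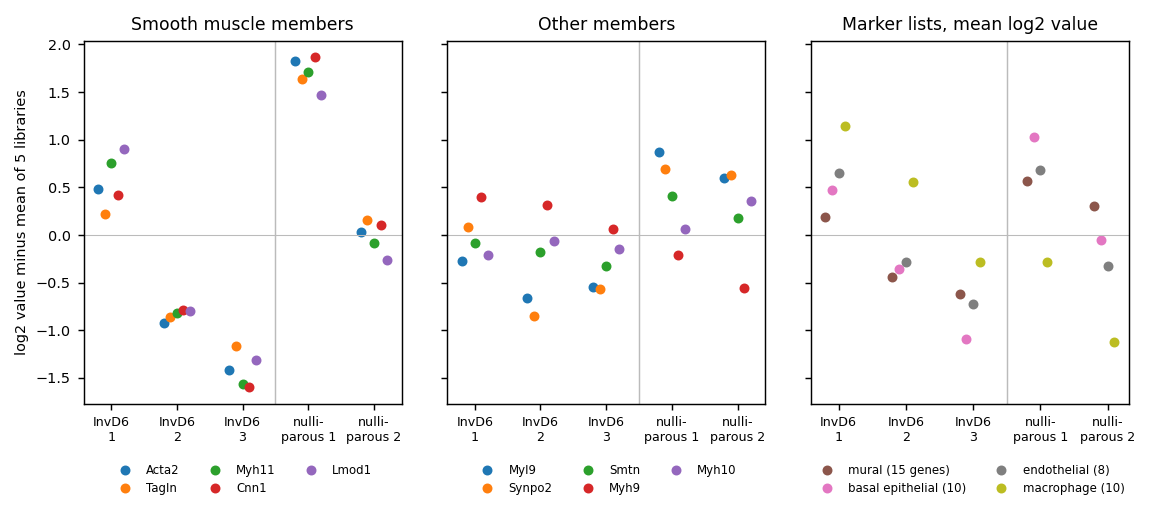
Log2 value minus the mean of the 5 libraries, by library, for 5 smooth muscle members (left), 5 other members (middle) and the mean log2 value of 4 marker lists (right). Smooth muscle members are highest in nulliparous replicate 1 and lowest in InvD6 replicate 3, as are the mural, basal epithelial and endothelial lists. The groups do not overlap for Myl9, Synpo2, Smtn, Myh9, Myh10 and the mural list.

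The nonmuscle myosin genes differed in direction. Myh9 had 15.24, 15.15 and 14.90 in InvD6 libraries and 14.63 and 14.28 in nulliparous libraries, with every InvD6 library above both nulliparous ones. Its log2 difference of 0.64 ± 0.16 missed the threshold (SE, n = 3 and 2, adjusted p = 0.0522 in limma). It passed with a filter of 50 units, with a robust prior and with libraries centred on their median (adjusted p = 0.0476, 0.0457 and 0.049 in limma). Myh10, the heavy chain gene of nonmuscle myosin IIB, had 12.55, 12.70 and 12.61 in InvD6 libraries and 12.83 and 13.13 in nulliparous libraries. All InvD6 libraries lay lower, and the log2 difference of -0.35 ± 0.11 did not pass (adjusted p = 0.0952 in limma). Under equal unlogged totals and quantile normalization Myh10 passed as lower.

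The ratio of both genes within a library does not depend on the scaling between libraries. The log2 value of Myh9 exceeded that of Myh10 by 2.69, 2.45 and 2.29 in InvD6 libraries and by 1.80 and 1.15 in nulliparous libraries. Per kilobase of exon, Myh9 made up 78.4% to 79.9% of the RNA of Myh9, Myh10, Myh11 and Myh14 in InvD6 libraries and 60.4% to 62.3% in nulliparous libraries. The share of Myh10 was 15.1% to 19.8% in InvD6 libraries and 22.1% to 33.5% in nulliparous libraries. The share of Myh11 was 1.2% to 4.95% in InvD6 libraries and 4.07% to 11.6% in nulliparous libraries. These shares were chosen after the values were seen and carry no test.

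Light chains were compared in the same way. Myl12a and Myl12b encode the other regulatory light chains of nonmuscle myosin and are near-identical, so reads may be split between them in a way the sources used here do not give. Per kilobase, Myl9 made up 14.1% to 17.4% of the RNA of the 3 genes in InvD6 libraries and 27.8% to 30.9% in nulliparous libraries. Myl12a had a log2 difference of -0.16 ± 0.07 and Myl12b one of 0.12 ± 0.09 (SE, n = 3 and 2, adjusted p = 0.2 and 0.411 in limma), and that of Myl12b turned negative under equal unlogged totals. The log2 value of Myl9 minus that of Myl12a was -2.70, -3.12 and -3.06 in InvD6 libraries and -1.77 and -2.02 in nulliparous libraries.

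Tropomyosins, which coat actin filaments and set which myosins can bind, were divided, and 0 of 4 passed. Tpm1 had 12.61, 12.73 and 12.46 in InvD6 libraries and 12.36 and 11.84 in nulliparous libraries, a log2 difference of 0.50 ± 0.17 (SE, n = 3 and 2, adjusted p = 0.111 in limma). Tpm3 had 11.76, 11.75 and 12.03 in InvD6 libraries and 11.34 and 11.57 in nulliparous libraries, a log2 difference of 0.39 ± 0.12 (adjusted p = 0.0942 in limma). For both genes every InvD6 library lay above the nulliparous ones. Tpm2, the gene of the muscle type beta tropomyosin, had 9.37, 9.36 and 8.92 in InvD6 libraries and 10.26 and 9.28 in nulliparous libraries, and the groups overlapped. Tpm4 was the most abundant per kilobase, with 71% to 72.4% of the family in InvD6 libraries and 77.5% to 77.8% in nulliparous libraries. The share of Tpm1 was 14% to 16.5% in InvD6 libraries and 9.99% to 10.9% in nulliparous libraries.

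Among calponins and related filament proteins, the nonmuscle genes Cnn2 and Cnn3 held nearly all calponin RNA. Cnn3 made up 78.4% to 81.4% of it per kilobase in InvD6 libraries and 70.3% to 73.6% in nulliparous libraries. Cnn2, which has a CArG box in its promoter, had 10.77, 10.92 and 10.55 in InvD6 libraries and 11.32 and 11.04 in nulliparous libraries. The InvD6 libraries all lay lower, and the log2 difference of -0.43 ± 0.14 did not pass (SE, n = 3 and 2, adjusted p = 0.106 in limma). Cald1, which encodes caldesmon, an actin-binding brake on myosin, had 13.97 to 14.16 in InvD6 libraries and 13.94 to 14.25 in nulliparous libraries. Of all actin RNA per kilobase, Acta2 made up 0.956% to 2.63% in InvD6 libraries and 2.23% to 6.89% in nulliparous libraries, while Actb, the cytoplasmic beta actin gene, made up 76.9% to 81.1% in InvD6 libraries and 76.4% to 77.5% in nulliparous libraries.

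**Figure D4:**
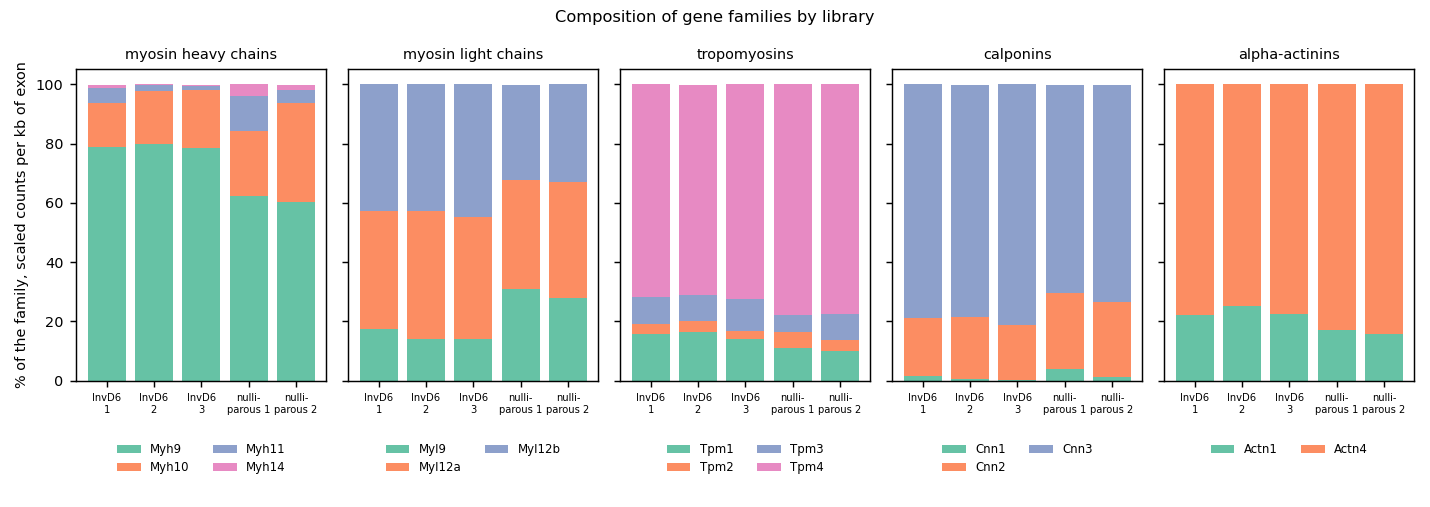
Share of each gene in its family by library, in percent of scaled counts per kilobase of exon, for 5 families. Myh9 takes a larger and Myl9 a smaller share in the 3 InvD6 libraries than in the 2 nulliparous libraries.

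Crosslinkers showed small differences besides Synpo2. Actn1 and Actn4 encode the nonmuscle alpha-actinins. Actn1 had 11.30, 11.29 and 10.99 in InvD6 libraries and 10.95 and 10.52 in nulliparous libraries, with no overlap and a log2 difference of 0.46 ± 0.16 (SE, n = 3 and 2, adjusted p = 0.124 in limma). Actn4 had 13.26, 13.02 and 12.92 in InvD6 libraries and 13.37 and 13.09 in nulliparous libraries, which overlapped. Actn1 made up 22.1% to 25% of both genes per kilobase in InvD6 libraries and 15.7% to 17.2% in nulliparous libraries. Flna differed by -0.29 ± 0.17 on the log2 scale (adjusted p = 0.3 in limma).

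At the anchors of the bundles 0 of 6 genes passed. Zyx, which encodes zyxin, a LIM protein that moves to stress fibres under tension, had 12.62, 12.74 and 12.84 in InvD6 libraries and 13.05 and 13.37 in nulliparous libraries. The groups did not overlap, and the log2 difference was -0.48 ± 0.12 (SE, n = 3 and 2, adjusted p = 0.059 in limma). Zyx passed as lower under quantile normalization and equal unlogged totals. Tln1, the gene of talin, which links integrins to actin, had 13.68, 13.60 and 13.38 in InvD6 libraries and 13.81 and 13.73 in nulliparous libraries, again without overlap (log2 difference -0.22 ± 0.11, adjusted p = 0.264 in limma). Vcl, the vinculin gene, had 11.81, 11.93 and 11.53 in InvD6 libraries and 12.00 and 11.90 in nulliparous libraries, and the groups overlapped. The PDZ and LIM domain genes Pdlim1, Pdlim5 and Pdlim7, whose proteins bind alpha-actinin or tropomyosin, had log2 differences of 0.03, 0.08 and -0.40, none past the threshold, and those of Pdlim1 and Pdlim5 turned negative under equal unlogged totals.

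Srf encodes the serum response factor itself and lies on chromosome 17 from 46548329 to 46556175, minus strand. It had 10.71, 11.02 and 11.06 in InvD6 libraries and 11.33 and 11.58 in nulliparous libraries. All InvD6 libraries lay below the nulliparous ones, and the log2 difference was -0.52 ± 0.14 (SE, n = 3 and 2, adjusted p = 0.0608 in limma). Srf passed as lower under equal unlogged totals. Cdh11, the gene of the adhesion protein cadherin 11 of fibroblasts, was among the most even members, with 13.93, 13.84 and 14.04 in InvD6 libraries and 13.98 in both nulliparous libraries.

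The wider pathway was read from 80 further genes in 4 lists, of which 79 were tested. Among them 3 rose and 11 fell, where 6.65% of all genes tested rose and 4.66% fell. Other genes of the pathway are not reported here, so these counts are not those of the pathway as a whole. The median log2 difference of the 79 was -0.05, and that of all genes was -0.03. The list of other adhesion and crosslinking genes held 9 of the 14, with 1 higher and 8 lower of 35, or 22.9% lower, against 4.66% of all genes tested. Because the lists were chosen with earlier results of these data known, this share only describes the list and is no test of it. Enah, which encodes the actin filament elongation factor Mena, had 11.03, 11.13 and 11.04 in InvD6 libraries and 12.09 and 11.94 in nulliparous libraries. It fell 1.93-fold, by 0.95 ± 0.08 (SE, n = 3 and 2, adjusted p = 0.00331 in limma). Synpo, the gene of synaptopodin, had 11.83, 11.70 and 11.67 in InvD6 libraries and 12.71 and 12.38 in nulliparous libraries, and fell by 0.81 ± 0.12 (adjusted p = 0.0113 in limma). Fhl2, which encodes a LIM protein that binds SRF and integrins, was the member of this list that rose, with 10.50, 10.48 and 10.56 in InvD6 libraries and 9.20 and 9.63 in nulliparous libraries. It rose 2.15-fold (log2 difference 1.10 ± 0.14, adjusted p = 0.00735 in limma). Enah and Fhl2 passed under all 15 alternatives, while Synpo missed the threshold without nulliparous replicate 1 (adjusted p = 0.0508 in limma) and with every gene with reads (0.06).

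The remaining 6 of that list were Fhl3, Flnc, Tns1, Pdlim4, Tgfb1i1 and Fermt2, named after their values were seen, which fell by 1.04, 0.70, 0.68, 0.56, 0.34 and 0.34 on the log2 scale. Flnc encodes filamin C, Tns1 the adhesion protein tensin 1 and Fermt2 the integrin activator kindlin 2. Each of the 6 missed the threshold without at least 2 of the 5 libraries, with the highest adjusted p in limma at 0.104 for Fhl3, 0.0681 for Flnc, 0.0958 for Tns1, 0.162 for Pdlim4, 0.137 for Tgfb1i1 and 0.171 for Fermt2.

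Of 23 genes of SRF cofactors and of the mechanosensitive YAP-TEAD pathway, 2 rose and 2 fell. Csrp2, which encodes a LIM protein of smooth muscle and fibroblasts, had 11.08, 11.13 and 11.37 in InvD6 libraries and 11.97 and 12.18 in nulliparous libraries. It fell 1.85-fold (log2 difference -0.88 ± 0.12, SE, n = 3 and 2, adjusted p = 0.00887 in limma), and missed the threshold without nulliparous replicate 2 (0.0535) and with every gene with reads (0.0544). Mkl1, the gene of the SRF cofactor MRTF-A that senses free actin, had 10.48, 10.39 and 10.36 in InvD6 libraries and 10.84 and 10.89 in nulliparous libraries, and fell 1.37-fold (adjusted p = 0.021 in limma). Elk3, the gene of an SRF partner that can repress, rose 1.34-fold (adjusted p = 0.0358 in limma), with 11.16, 11.32 and 11.11 in InvD6 libraries and 10.78 and 10.76 in nulliparous libraries. Mef2d, a related transcription factor gene, was the fourth and rose 1.27-fold (adjusted p = 0.0493 in limma). Mkl1 and Mef2d lost the call whichever of the 5 libraries was left out. Elk3 lost it without InvD6 replicate 1 or 2 and without nulliparous replicate 1 or 2. Without a variance trend Mkl1, Elk3 and Mef2d all missed the threshold. Elk3 and Mef2d also missed it with every gene with reads and under equal unlogged totals. Mef2d missed it too with a robust prior, with median centring and with the offset removed and 1 added. Without 1 library the log2 difference ran from -0.488 to -0.426 for Mkl1, 0.361 to 0.469 for Elk3 and 0.28 to 0.412 for Mef2d.

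Of 4 further myosin chain genes, 0 passed. The smallest p was that of Myh14, the heavy chain gene of nonmuscle myosin IIC, at 8.27, 6.69 and 7.07 in InvD6 libraries and 9.88 and 8.58 in nulliparous libraries (log2 difference -1.89 ± 0.56, SE, n = 3 and 2, adjusted p = 0.0819 in limma). Of 17 genes of cytoplasmic actins and actin turnover, Pfn2, which encodes the actin monomer binding protein profilin 2, fell 1.29-fold (adjusted p = 0.0405 in limma) and 0 rose. Pfn2 lost the call whichever of the 5 libraries was left out. It also lost it with every gene with reads and without a variance trend (adjusted p = 0.0596 and 0.0877 in limma). Its values were 10.13, 10.14 and 10.23 in InvD6 libraries and 10.53 and 10.52 in nulliparous libraries.

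**Figure D5:**
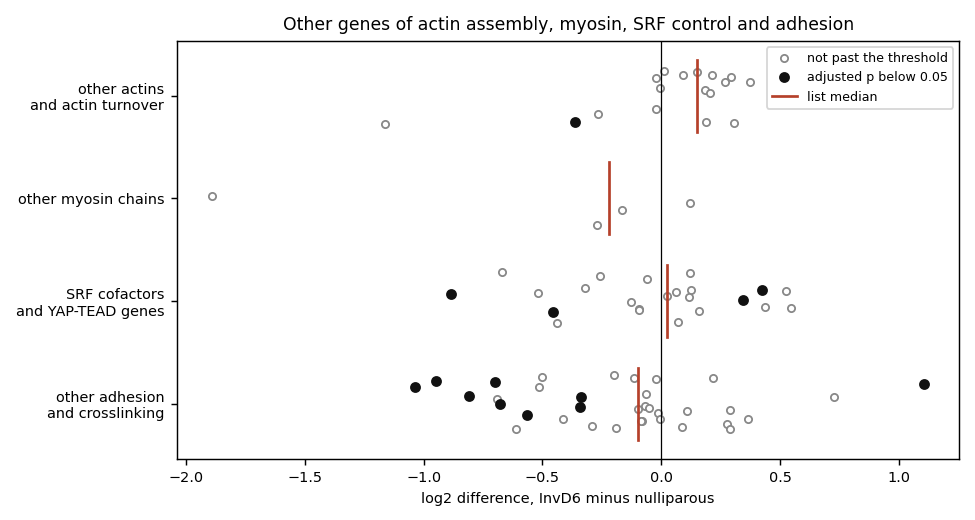
Log2 difference of InvD6 minus nulliparous fibroblasts for 79 further genes in 4 lists, each point a gene, filled where it passed the threshold, with a red line at the median of each list. Most filled points are in the adhesion and crosslinking list, 8 below 0 and Fhl2 above it.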

How the data were processed

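RNA of sorted PDGFRa-positive cells was sequenced in 5 libraries, made with a TruSeq kit that does not mark strand, per the labels' protocols. The submitters' processing notes name bcl2fastq, STAR 2.4.2a and build GRCm38. How reads were counted and scaled, with which annotation and offset, is not stated. What the authors deposited is a single table in log2 units, called log2-transformed counts in its title, with 45706 rows. The 17395 rows without reads shared a value of 3.57, which is log2 of an offset of 11.8. The log2 value is read as that of a scaled count plus the offset, and a small further adjustment per row is of unknown method. Log2 differences of low genes are therefore understated. Whole reads were not recovered, so no count test was run, and depth is known only as the unlogged totals.

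Groups were compared with limma 3.58.1 in R 4.3.3 (linear model, moderated two-sided test with a variance trend, Benjamini-Hochberg adjustment, threshold 0.05) over 15912 genes whose mean reached 4.45, which is 10 units above the offset. Nothing else in the labels says that the libraries came from separate animals, so p-values measure the spread between these libraries. Members, lists, filter and tests were chosen with earlier results of these data known. All members are named. Of each further list up to 3 genes past the threshold are named, or the gene with the smallest p. Of a marker list the most abundant gene and that with the smallest p were to be named, and others were named after their values were seen. Genes of 1 pathway list are not reported here, and its 4 myosin chain genes were kept as a list of their own after their values were seen. Levels between genes were compared per kilobase of merged GENCODE M21 exons, and coordinates are from that annotation, 1-based. Merged exons include those of every annotated transcript, so shares within a family depend on this length. It was 1162 bases for Myl9, 3360 for Myl12a and 2770 for Myl12b. The fit was tried on simulated data. Alternatives changed the filter, prior, offset, scaling, replicate block and libraries.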

Additional observations from a re-analysis of the deposited data

How the results depend on the processing

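Of 450 values of the 30 members over the 15 alternatives, 400 kept their direction and side of the threshold, 15 lost the call (Smtn and Synpo2), 20 gained it and 15 changed sign, all of the last without a call. With every gene with reads tested, 0 members were higher and 1 lower, as were 322 and 235 of all genes and 1 and 2 pathway genes. Without a trend in the prior variance 1 member was called lower, 686 and 482 of all genes higher and lower, and 1 and 4 pathway genes. A stricter filter (50 units over the offset), a robust prior and median centring each called 1 member higher, Myh9. Quantile normalization called 5 members lower. Equal unlogged totals moved the median difference of all genes to -0.164, against -0.0317, and called 7 members lower, 803 of all genes higher and 1731 lower, against 1058 and 742, and 1 and 15 pathway genes. Leaving out 1 library gave 0 members higher and 1 to 2 lower, 296 to 786 and 208 to 483 of all genes, and 1 to 3 and 2 to 6 pathway genes.

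The groups share replicate numbers 1 and 2, but no source says that a number marks a common animal or day. Deviations from the group means correlated across genes at 0.577 for the libraries numbered 1 and 0.0628 for those numbered 2. InvD6 replicate 3 correlated at 0.51 with nulliparous replicate 2. The deviations of the 2 nulliparous libraries mirror each other, so these values are not independent of each other. They cannot tell whether the numbers mark a shared animal or day, which was not tested. With the replicate block, in which InvD6 replicate 3 has no partner and drops out of the comparison, 3 members were higher and 11 lower, 1817 and 1449 of all genes, and 8 and 14 pathway genes. It added Acta2 (adjusted p = 0.00177 in limma), Tagln (0.00202), Myh11 (0.00351), Srf (0.00465), Zyx (0.0108), Cnn1 (0.0142), Pdlim7 (0.0297) and Myh10 (0.0353) as lower, and Myh9 (0.00932), Actn1 (0.0201) and Tpm1 (0.0424) as higher.

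Signs changed for Cnn3 under quantile normalization (-0.00899) and equal unlogged totals (-0.0548), where Pdlim5 (-0.0586), Pdlim1 (-0.106) and Myl12b (-0.0217) changed too, and for Cald1 (0.0275), Pdlim1 (-0.0683) and Mylk (0.275) with the replicate block. Without 1 library the differences ran from -0.179 to 0.131 for Cald1, -0.0947 to 0.00715 for Cdh11, -0.000389 to 0.174 for Cnn3, -0.837 to 0.201 for Des, -0.275 to 0.275 for Mylk, -0.0683 to 0.098 for Pdlim1 and -0.366 to 0.0328 for Tpm4. The cause of these changes was not tested.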

Other observations

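Some genes that respond to stretch or to SRF were highest in the library of each group where Acta2 was lowest. Cyr61, the gene of the matricellular protein CCN1, had 14.87, 14.72 and 15.93 in InvD6 libraries and 14.95 and 16.74 in nulliparous libraries. Ctgf, which encodes CCN2, had 10.62, 10.54 and 12.29 in InvD6 libraries and 9.50 and 11.71 in nulliparous libraries. Amotl2, a YAP target gene, had 12.53, 12.59 and 12.73 in InvD6 libraries and 12.59 and 13.52 in nulliparous libraries. In these 3 genes InvD6 replicate 3 and nulliparous replicate 2 were the highest of their groups, and each had the lowest Acta2 of its group. None of the 3 passed in limma (adjusted p = 0.498, 0.689 and 0.312).

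Gsn, which encodes the filament-severing protein gelsolin, was the most abundant gene of the 4 pathway lists. It had 18.38, 17.62 and 18.42 in InvD6 libraries and 19.31 and 19.30 in nulliparous libraries, all InvD6 libraries lower. Its log2 difference of -1.16 ± 0.39 (SE, n = 3 and 2) did not pass (adjusted p = 0.112 in limma). These genes were chosen after their values were seen.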
